A study of Mus musculus with 6 samples.

Results

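The cochlear lateral wall and the spiral limbus are built largely by fibrocytes that descend from the otic mesenchyme. A list of 6 genes for these cells and that mesenchyme was followed here in cochlear duct RNA: Coch, Otos, Otor, Emilin2, Pou3f4 and Tbx18. The 6 genes were chosen by name and not by a threshold on their measured values, and all 6 were found among the 14865 genes of the deposited table. The RNA came from mice at postnatal day 8 in the C57BL/6 strain. The Gfi1cre/+ animals carried 1 Gfi1 allele with the coding sequence of Cre recombinase knocked in, and the Gfi1+/+ animals carried none. The knock-in replaces part of the gene, so the Gfi1cre/+ animals had 1 functional copy of Gfi1. The labels name no drug or other agent. Each genotype was sequenced as 3 polyA-enriched libraries. A Gfi1+/+ library held RNA from both cochleae of 1 mouse and a Gfi1cre/+ library held RNA pooled from 3 mice, so the spread among the former is a spread between single animals and that among the latter is a spread between averages of 3. In this line Cre follows Gfi1, which is active in hair cells (HCs), and recombination was also seen by the study in immune cells of the cochlea. The study asked whether the knock-in changes gene expression in the cochlea, and for the 6 genes the question is whether their levels differed between the genotypes. The p-values set each difference between the genotypes against the spread between these libraries. RNA from whole ducts does not show which cells express a gene. Fewer fibrocytes and less RNA per fibrocyte cannot be told apart in it.

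As background, fibrocytes of the spiral ligament anchor the stria vascularis and the basilar membrane to the bony wall and take part in returning potassium from the HCs to the stria. Mesenchymal transcription factors direct their differentiation before birth, and loss of these factors in mice causes deafness with a poor endocochlear potential. Mature fibrocytes secrete a characteristic set of proteins into the matrix. Cochlin, encoded by Coch, is a matrix protein with an LCCL domain and von Willebrand factor A domains, and it is mutated in a dominant form of human deafness with vestibular decline. Otospiralin, encoded by Otos, is a small secreted protein of the fibrocytes of the ligament and limbus. Otoraplin, encoded by Otor, is a small secreted protein of the melanoma inhibitory activity family. Emilin2 is a glycoprotein of the elastin microfibril interface family that is found in the basilar membrane. Pou3f4 encodes a POU domain factor, and Tbx18 encodes a T-box factor, both of the otic mesenchyme.

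The 6 genes lie on 6 chromosomes of GRCm38. In the GENCODE annotation, Coch (ENSMUSG00000020953) is on the plus strand of chromosome 12 from 51593341 to 51605771, and Otos (ENSMUSG00000044055) is on the minus strand of chromosome 1 from 92644218 to 92648841. Otor (ENSMUSG00000027416) is on the plus strand of chromosome 2 from 143078473 to 143081713, and Emilin2 (ENSMUSG00000024053) is on the minus strand of chromosome 17 from 71252172 to 71311978. Pou3f4 (ENSMUSG00000056854) is X-linked, on the plus strand from 110814280 to 110817207, and is a single exon of 2928 bases. Tbx18 (ENSMUSG00000032419) is on the minus strand of chromosome 9 from 87702800 to 87731260. All are protein coding. Of the exon bases of Tbx18, 970 (20.6%) are also exon of D030062O11Rik on the opposite strand. The strand setting of the counting is not given in the sources used here, so it is not known how reads on the shared bases were counted. The level of Tbx18 may depend on it. The other members share no exon bases with another annotated gene.

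Start regions of the 4 genes for secreted proteins are shown because these 4 have the highest levels and the widest spread described further on. RefSeq (GRCm38.p6) gave 7 windows of 300 bases, from 250 before to 50 after the start, for the 6 genes, with 2 starts for Emilin2. The lines below give 100 bases before and 50 from each start, 5′ to 3′, and the capitals mark, on either strand, the letters TATAAA of a TATA box, the letters CCAAT of the box named after them, or the letters GGGCGG of a GC box.

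Coch, chr12:51593241-51593390, plus strand: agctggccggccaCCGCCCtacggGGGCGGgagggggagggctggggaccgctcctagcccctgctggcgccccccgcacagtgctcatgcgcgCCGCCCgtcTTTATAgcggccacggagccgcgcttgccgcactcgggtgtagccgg
Otos, chr1:92648792-92648941, minus strand: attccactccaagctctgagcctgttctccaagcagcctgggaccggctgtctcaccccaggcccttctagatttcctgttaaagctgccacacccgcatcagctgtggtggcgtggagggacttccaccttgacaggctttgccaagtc
Otor, chr2:143078293-143078442, plus strand: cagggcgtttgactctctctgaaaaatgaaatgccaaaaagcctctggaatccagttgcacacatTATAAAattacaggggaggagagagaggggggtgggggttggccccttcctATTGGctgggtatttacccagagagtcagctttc
Emilin2, downstream start, chr17:71310962-71311111, minus strand: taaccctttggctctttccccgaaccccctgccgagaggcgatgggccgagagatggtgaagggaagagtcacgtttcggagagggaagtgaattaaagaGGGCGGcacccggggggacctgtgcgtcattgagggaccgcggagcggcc
Emilin2, upstream start, chr17:71311507-71311656, minus strand: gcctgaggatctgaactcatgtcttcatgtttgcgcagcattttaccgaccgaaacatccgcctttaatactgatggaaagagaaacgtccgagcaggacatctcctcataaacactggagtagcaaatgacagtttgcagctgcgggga

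These windows had little in common in base composition. Coch had 32 CpG dinucleotides in its 300 bases and a GC content of 73.7%, more CpG than 90.5% of the 32851 RefSeq windows. Otor had 2 CpG, more than 14.1% of windows, and Otos had 6, against a median of 7 over all windows. The upstream Emilin2 window had 7 and the downstream window 21. TATAAA was found 35 bases before the start of Otor on its own strand, and on the opposite strand just after the start of Coch, and 13.6% of all windows hold it on either strand. GGGCGG was found in Coch and in the downstream Emilin2 window, beside 35.7% of all windows. CCAAT was found in Otor, Tbx18 and Pou3f4, 3 times in the last, beside 37.4% of all windows. An octamer recognised by POU factors, ATGCAAAT, was in none of the 7 member windows and in 1.74% of all windows. The T-box core AGGTGT and the GFI1 core AAATCA were likewise in no member window, and in 13.7% and 14% of all windows. A match is a run of letters and not a site of binding, and its absence concerns these windows alone. No match in a member window overlapped another.

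Depth and tissue were checked before the levels were compared. Deposited values are read counts divided by 1 size factor per library and are called normalized reads. The counted reads ran from 13603908 to 19359753 per library, and for the 6 members between 2488 and 65056 reads lay behind each value. HC, stria, bone and cartilage genes were all present: Myo7a ran from 601 to 769 normalized reads, Kcnq1 from 3266 to 3673, Ibsp from 6090 to 24660 and Col2a1 from 274391 to 375917. Gfi1 itself had 147, 160 and 152 normalized reads in replicates 1, 2 and 3 of Gfi1+/+, and Gfi1cre/+ had 136, 130 and 139. By the study's account, what remains of the replaced allele still adds to these counts. Its RT-qPCR of newborn cochleae found the replaced exons lower in Gfi1cre/+. Summed marker levels varied by a factor of 1.14 or less between the highest and lowest library for HC, supporting cell, stria, endothelial and macrophage genes, with 9 or 10 of 10 listed genes found in the table for each. For the bone and cartilage list the factor was 1.3 (10 of 12 genes found), for glia 2.24 (10 of 10), for erythroid genes 2.24 (10 of 12) and for neurons 5.57 (10 of 10), the last with 9669 normalized reads in Gfi1+/+ replicate 1 and 1735 to 3541 elsewhere. All 9 neuron genes tested had estimates below 0 in Gfi1cre/+ against Gfi1+/+ (median log2 difference -1.22, 5 at an unadjusted p under 0.05 in limma's fit across all genes). Of all genes tested, 3.04% were under that p. Of the 9 HC genes tested, 7 had estimates below 0 and 2 above (median -0.15, 1 at that p). Their sums did not overlap, at 7773 to 8111 in Gfi1+/+ and 7534 to 7588 in Gfi1cre/+. Of the 9 supporting cell genes tested, 7 were below 0 and 2 above (median -0.03, 0 at that p). The supporting cell sums were 18555 to 19087 in Gfi1+/+ and 18213 to 18393 in Gfi1cre/+. All 10 erythroid genes had estimates above 0 (median 1.01, 8 at that p), with sums of 16983 to 23957 in Gfi1+/+ and 21824 to 38019 in Gfi1cre/+. Their part in the levels of the 6 members was not tested. Of 10 skeletal muscle genes 4 were found, and 1 was tested. The Y-linked Ddx3y had no read in any Gfi1+/+ library and 232, 289 and 485 normalized reads in the Gfi1cre/+ libraries, so the sex of the mice and their genotype cannot be told apart in any comparison given here, X-linked Pou3f4 included.

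Per length, Otor led the 6 genes and Tbx18 came last. Levels are given as the mean over the 6 libraries of normalized reads per kb of annotated exon, since a longer transcript collects more reads. The length counts each base that is exon in any annotated transcript, 949 bases for Otor and 3082 for Otos. Otor stood at 56388 per kb, which placed it at rank 4 of the 14791 genes with an annotated length. Otos followed at 12361 per kb (rank 50), then Emilin2 at 5659 (rank 130), Coch at 4701 (rank 158), Pou3f4 at 2036 (rank 369) and Tbx18 at 710 (rank 1243). In all 6 libraries the order per length was the same. The ranges over libraries did not overlap between neighbours in this order, apart from Emilin2 and Coch, where Emilin2 ranged down to 3452 per kb and Coch up to 5510. The distances between genes and the ranks depend on the lengths used, and other lengths could change the order. Which transcripts of a gene were expressed was not examined. In normalized reads without a length, Otor ranked 17, Otos 23 and Emilin2 32 of all genes. In Gfi1+/+ replicate 3, Otos (46380) and Emilin2 (43369) then stood above Otor (38982). Together the 6 genes took between 0.771% and 0.933% of all counted reads of a library.

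**Figure D1:**
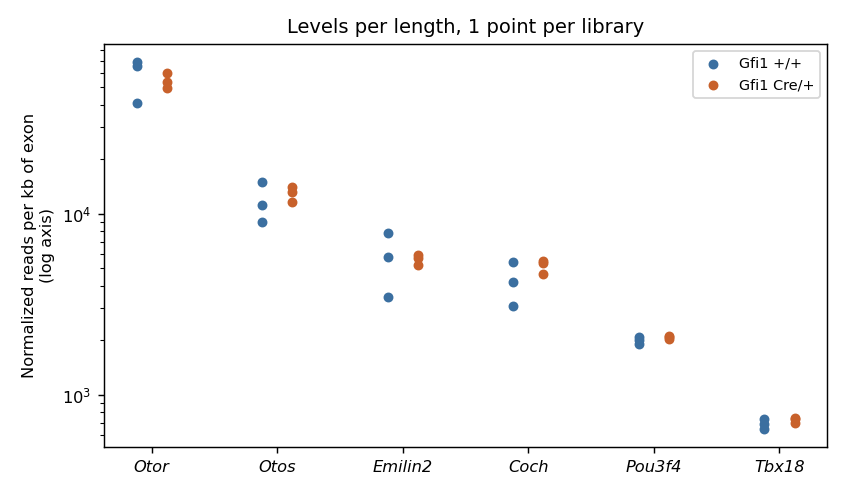
Normalized reads per kb of exon (log axis) for the 6 genes, 1 point per library, Gfi1+/+ in blue and Gfi1cre/+ in orange. Otor lies above Otos by a factor of 4.56 in the means, and Tbx18 lies at the bottom with 651 to 747 per kb.

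Coch, the cochlin gene, gave 12621, 9245 and 16264 normalized reads for replicates 1, 2 and 3 of Gfi1+/+. In Gfi1cre/+ replicates 1, 2 and 3 it was measured at 16519, 13942 and 15962. The genotypes overlapped, since Gfi1+/+ replicate 3 lay above 2 of the Gfi1cre/+ libraries, and Gfi1+/+ replicate 2 lay below all others. The means were 12710 ± 3510 in Gfi1+/+ and 15474 ± 1356 in Gfi1cre/+ (SD, n = 3). On the log2(normalized reads + 1) scale the difference, Gfi1cre/+ against Gfi1+/+, was 0.32 (standard error 0.174, 95% interval -0.07 to 0.71, adjusted p = 0.999 in limma's test with Benjamini-Hochberg adjustment), a fold of 1.25 with bounds of 0.949 and 1.64. It was the widest difference of the 6 genes with all libraries, but leaving out replicate 2 of Gfi1+/+ brought it to 0.11, and leaving out replicate 3 to 0.52. An exact permutation test, two-sided, gave p = 0.3, where 3 libraries against 3 can go no lower than 0.1.

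Otos, which encodes otospiralin, gave 34311, 27926 and 46380 normalized reads for the same mice in order. The Gfi1cre/+ replicates had 43118, 35985 and 40863. Both the lowest and the highest library were Gfi1+/+, namely replicates 2 and 3. The log2 difference was 0.17 (standard error 0.166, 95% interval -0.20 to 0.55, adjusted p = 0.999, limma), and it was -0.0006 without Gfi1+/+ replicate 2.

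Emilin2, the microfibril glycoprotein gene, spread the most. Its 3 Gfi1+/+ values were 31971, 19004 and 43369 normalized reads, a factor of 2.28 between the highest and the lowest. In Gfi1cre/+ the replicates had 31383, 28773 and 32401, a factor of 1.13, and all of them lay inside the Gfi1+/+ range. The means of 31448 ± 12191 and 30852 ± 1871 (SD, n = 3) were close, with a log2 difference of 0.05 (standard error 0.243, 95% interval -0.50 to 0.60, adjusted p = 0.999, limma). Its sign followed single libraries and the scale: leaving out Gfi1+/+ replicate 2 gave -0.27, leaving out replicate 3 gave 0.32, and the edgeR and DESeq2 count models gave -0.03.

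Otor, the otoraplin gene, ran the other way among the Gfi1+/+ mice. Its 65141, 62524 and 38982 normalized reads in replicates 1, 2 and 3 put replicate 3 lowest of all 6 libraries, whereas that replicate was the highest of all 6 for Otos and Emilin2. The Gfi1cre/+ replicates had 56621, 46794 and 51013 and lay between the Gfi1+/+ extremes. The log2 difference was -0.08 (standard error 0.183, 95% interval -0.49 to 0.34, adjusted p = 0.999, limma), and it turned positive when replicate 1 (0.06) or replicate 2 (0.03) of Gfi1+/+ was left out.

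The transcription factor genes were much steadier. Pou3f4 stood at 5559, 6119 and 5881 normalized reads for Gfi1+/+, beside 6098, 5933 and 6186 for Gfi1cre/+, which is a factor of 1.11 across all 6. Its means were 5853 ± 281 and 6072 ± 128 (SD, n = 3), and its log2 difference was 0.05 (standard error 0.0571, 95% interval -0.07 to 0.18, adjusted p = 0.999, limma). Tbx18 had 3071, 3475 and 3270 normalized reads in Gfi1+/+ and 3457, 3523 and 3301 in Gfi1cre/+, a factor of 1.15 across all 6. Its means were 3272 ± 202 and 3427 ± 114 (SD, n = 3), and its log2 difference was 0.07 (standard error 0.0613, 95% interval -0.07 to 0.21, adjusted p = 0.999, limma). For both genes, Gfi1+/+ replicate 1 was the lowest library and the genotypes overlapped. The bounds allow a fold of 0.949 to 1.14 for Pou3f4 and of 0.952 to 1.15 for Tbx18.

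**Figure D2:**
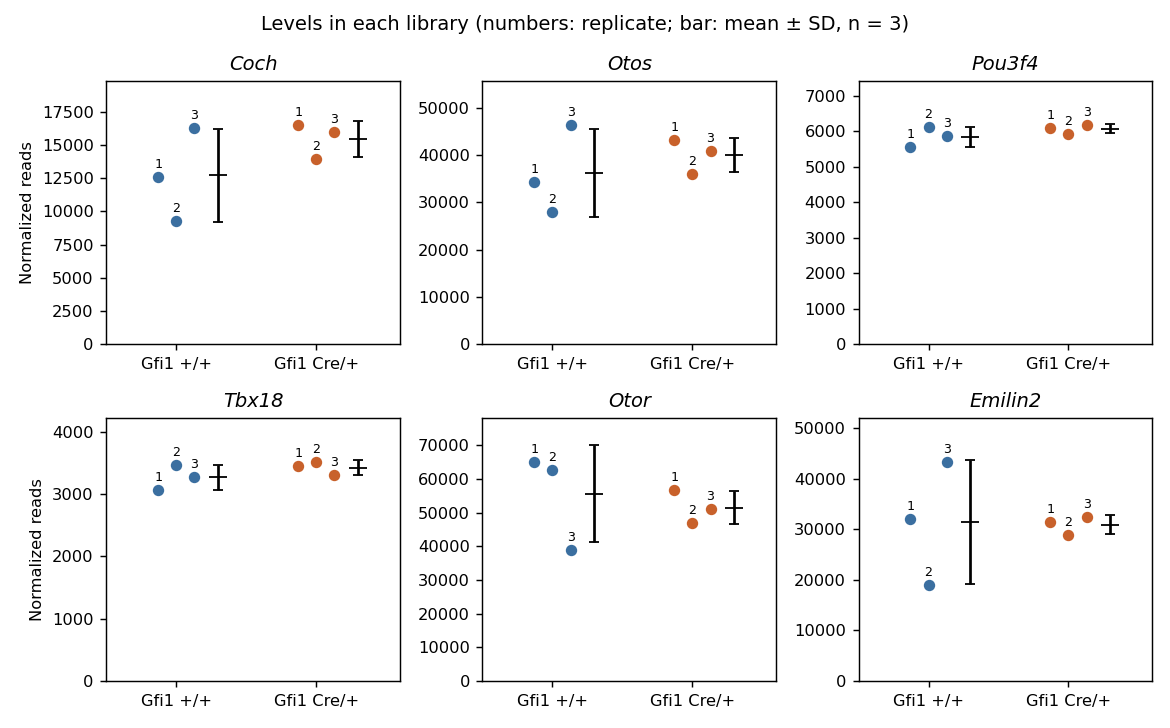
Normalized reads (linear axis from 0) of the 6 genes in each library, with the replicate number above each point and the mean ± SD (n = 3) in black beside it. Pou3f4 and Tbx18 form tight rows, whereas Coch, Otos, Otor and Emilin2 spread more widely in Gfi1+/+ (blue) than in Gfi1cre/+ (orange).

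None of the 6 genes passed a threshold for a genotype difference. All 6 were among the 14455 genes tested, and by limma, edgeR or DESeq2 0 of 6 reached an adjusted p of 0.05, beside 0.0277% of all genes tested in limma. At an unadjusted p under 0.05 the count was also 0 of 6, beside 3.04% of genes, and in 0 of 6 did the genotypes fail to overlap, beside 7.52% of genes. Estimates were above 0 for 5 of the 6 genes and below 0 for Otor. Their median was 0.06, where all genes tested had a median of 0.00 and quartiles of -0.06 and 0.06. Leaving out Gfi1+/+ replicate 3 changed the unadjusted count. Without that library the limma fit across all genes gave an unadjusted p of 0.00184 for Coch (log2 difference 0.52), 0.00527 for Otos (0.37) and 0.00446 for Otor (-0.31), beside 16.2% of the 14418 genes then tested that fell under 0.05. The adjusted p-values of these 3 in that limma fit were 0.112, 0.139 and 0.134. The plot of genotype differences shows how far each left-out library moved each gene.

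**Figure D3:**
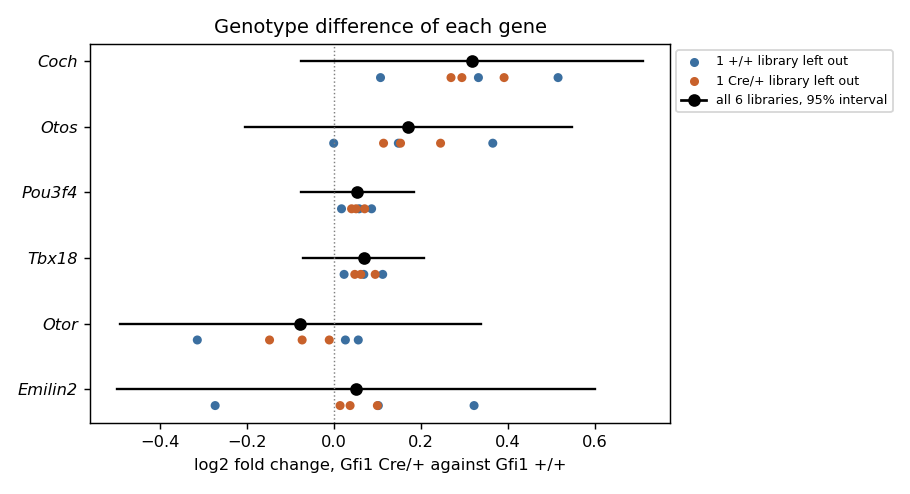
log2 fold change of each gene, Gfi1cre/+ against Gfi1+/+, on log2(normalized reads + 1). Black points and lines give the estimate and 95% interval from all 6 libraries, and small points give the estimate with 1 Gfi1+/+ (blue) or 1 Gfi1cre/+ (orange) library left out. Each black line crosses 0, and Pou3f4 and Tbx18 have the shortest.

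Between the Gfi1+/+ libraries the 4 secreted-protein genes varied more than most genes, and the factor genes did not. The SD of log2(normalized reads + 1) between the Gfi1+/+ libraries was 0.602 for Emilin2, 0.412 for Otor, 0.408 for Coch and 0.368 for Otos. Among the 4100 genes that averaged 1000 normalized reads or more, whose median SD was 0.0928 and most of which had fewer reads than these 4, between 98.4% and 99.4% had a lower SD than these 4. For Pou3f4 (SD 0.0695) the share was 33.3% and for Tbx18 (SD 0.0891) it was 47.8%. Between the Gfi1cre/+ libraries the SD was 0.138 for Otor, 0.134 for Otos, 0.129 for Coch and 0.0886 for Emilin2, against a median of 0.0474. The SD was larger in Gfi1+/+ than in Gfi1cre/+ for all 6 genes, as it was for 71.2% of all genes tested, and the pooling of 3 mice per Gfi1cre/+ library cannot be told apart from genotype here. The limma p-values and intervals take the same variance for both genotypes in each gene, so they do not allow for this inequality.

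Coch, Otos and Emilin2 had the same order among the Gfi1+/+ libraries. In all 3, Gfi1+/+ replicate 2 was the lowest library, at -0.58, -0.43 and -0.67 from the gene's mean over libraries on the log2 scale, and Gfi1+/+ replicate 3 was the highest Gfi1+/+ library, at 0.23, 0.30 and 0.52. Emilin2 parted from the others in Gfi1+/+ replicate 1, at 0.08 where Coch and Otos were both at -0.13. Otor stood at 0.25 and -0.44 in the same 2 libraries. The order with replicate 2 lowest and replicate 3 highest among the Gfi1+/+ libraries held for 16.6% of all genes tested, and with a factor of at least 1.5 between them for 1.76%. This order was read from the values of Coch, Otos and Emilin2, and the factor was not planned in advance. That these 3 genes meet both is therefore no test. The ratio of Otor to Emilin2 within a library ran from 0.899 to 3.29 in Gfi1+/+ and from 1.57 to 1.80 in Gfi1cre/+. The ratio of Coch to Otos was far steadier, at 0.368, 0.331 and 0.351 in Gfi1+/+ and 0.383, 0.387 and 0.391 in Gfi1cre/+. This was the 1 of 15 ratios between members in which the genotypes did not overlap. Of all single genes tested, 7.52% had genotypes that did not overlap, and the share over all ratios of genes was not computed. The ratio of Coch to Otos was picked out after the values had been seen, and it was not tested.

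**Figure D4:**
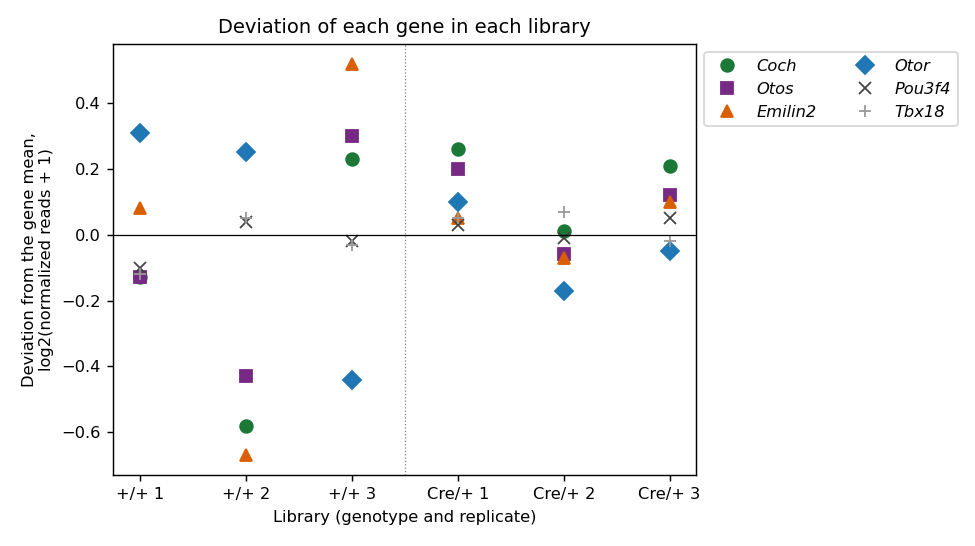
Deviation of each gene from its own mean over the 6 libraries, in log2(normalized reads + 1), for each library. Coch, Otos and Emilin2 lie together below 0 in Gfi1+/+ replicate 2 and above 0 in Gfi1+/+ replicate 3, where Otor lies on the opposite side of 0.

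The order seen in Coch, Otos and Emilin2 was found in part of several gene lists. It held for 5 of 9 fibrocyte gap junction and contractile genes tested (1 of them by a factor of at least 1.5). For fibrocyte ion and water transport genes it was 4 of 16 (2 by that factor). It held for 2 of 24 ligament and limbus matrix genes, 1 of 18 mesenchymal transcription factor and receptor genes and 3 of 16 family relatives, 0 by that factor. Over these 5 lists, each gene counted 1 time, it held for 15 of 79 (19.0%), beside 16.6% of all genes tested. By that factor it held for 3 (3.8%), beside 1.76%. Among bone and cartilage genes it held for 5 of 10 (4 by that factor). Ibsp, which encodes bone sialoprotein, had 12340, 6090 and 24660 normalized reads in Gfi1+/+, with 16775, 15281 and 18658 in Gfi1cre/+. Bglap, the osteocalcin gene, had 3382, 2288 and 6677 in Gfi1+/+ and 4044 to 4696 in Gfi1cre/+. Sp7, Dmp1 and Mepe were the other 3. The remaining 5 genes of the list (Spp1, Col2a1, Col9a1, Acan and Matn1) did not have this order. Spp1, the osteopontin gene, had 10161, 10606 and 9850 in Gfi1+/+, with replicate 3 lowest, and Col2a1 had 274391, 332150 and 375917, with replicate 1 lowest. All 10 estimates of the bone and cartilage list were above 0 in Gfi1cre/+ against Gfi1+/+, with a median log2 difference of 0.21. Of the 10, 2 (Mepe and Spp1) had an unadjusted p under 0.05 in limma's fit across all genes, beside 3.04% of all genes tested. The summed level of the list ran from 411135 to 532739 in Gfi1+/+ and from 485752 to 511279 in Gfi1cre/+, and no gene of it found in the table was at 0. The part of bone in the levels of Coch, Otos and Emilin2 was not tested. Among the Gfi1+/+ libraries, replicate 3 was lowest for Otor and for 38.8% of all genes tested. It was lowest for 12 of 24 ligament and limbus matrix genes and for 21 of the 79 genes of the 5 lists (26.6%). It was lowest too for 9 of 9 neuron genes tested. The sums of the neuron list were 9669, 3541 and 2219 in Gfi1+/+ replicates 1, 2 and 3. In Gfi1cre/+ replicates 1, 2 and 3 they were 1735, 2209 and 2565. The part of neurons in the level of Otor was not tested.

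Whole-profile comparison gave the genes nearest to each member. Likeness was measured as the root mean square difference of log2(normalized reads + 1), each gene centred on its own mean, over the 6 libraries and among 10359 genes that averaged 200 normalized reads or more. Nearest to Otos were Ndnf (0.0576), S100b (0.0601) and Rerg (0.0632), and nearest to Coch were S100b (0.0949), Ndnf (0.108) and Prom2 (0.109). The distance between Coch and Otos themselves was 0.0860, so Otos was nearer to Coch than any of the 10359 genes. S100b, which encodes a calcium-binding protein, had 25741, 20012 and 30294 normalized reads in Gfi1+/+ and 31109, 25447 and 28735 in Gfi1cre/+. Nearest to Emilin2 were Nat8l (0.0734), Umodl1 (0.0836) and Prss36 (0.0974). Prss36, a serine protease gene, had 8168, 5263 and 12928 normalized reads in Gfi1+/+ and 8704 to 9864 in Gfi1cre/+. Anks1b (0.0575), Pnck (0.0578) and Snhg5 (0.0628) were nearest to Otor. For Pou3f4 the nearest were Plin3 (0.00933), Mapk13 (0.0137) and Xrcc1 (0.0149), and for Tbx18 they were Tmem43 (0.0159), Slc46a1 (0.0196) and Klhl24 (0.0197). A flat gene is near to every other flat gene on this measure, and Pou3f4 and Tbx18 themselves lay 0.0515 and 0.0677 from their own means.

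Within their families 4 of the members had the highest level per kb of the genes analysed. Of the EMILIN family, Emilin2 stood at 5659 normalized reads per kb, Emilin1 at 561, Emilin3 at 534 and the multimerin gene Mmrn2 at 85.0. Emilin1 had 2786 ± 193 normalized reads in Gfi1+/+ and 2751 ± 184 in Gfi1cre/+ (SD, n = 3), and its 6 libraries differed by a factor of 1.14, where those of Emilin2 differed by 2.28. Coch at 4701 per kb was followed among the LCCL domain genes by Vit, which encodes vitrin, at 1338. Vit was steadier too, with a factor of 1.18 across libraries and means of 4203 ± 254 and 4435 ± 213. Otor at 56388 per kb stood beside a single relative, Mia3, at 396. Of the POU class that holds Pou3f4 (2036 per kb), Pou3f3 stood at 482, Pou3f1 at 13.2 and Pou3f2 at 8.74. Tbx18 at 710 per kb came below 1 other T-box gene: Tbx2 stood at 923, Tbx1 at 307, Tbx3 at 90.0 and Tbx15, its close relative, at 9.27. None of the 16 family genes tested had an unadjusted p under 0.05, and their median log2 difference was 0.03.

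Other genes of fibrocytes and mesenchyme were counted from 5 lists that hold 90 genes, of which 79 were tested, a gene on several lists counting 1 time. Of these, 0 had an adjusted p under 0.05 in limma's test and 1 (1.27%) had an unadjusted p under 0.05, beside 3.04% of all genes. In 2 (2.53%) the genotypes did not overlap, beside 7.52%. Estimates were above 0 in 55 and below 0 in 24, with a median of 0.05 and a range from -0.46 to 0.36. The single gene was Slc26a4, which encodes the anion exchanger pendrin and is known from epithelial cells beside the ligament. It had 1137, 1020 and 1294 normalized reads in Gfi1+/+ and 1271, 1337 and 1382 in Gfi1cre/+, so that the genotypes overlapped (log2 difference 0.22, unadjusted p = 0.0331, adjusted p = 0.999, limma). The 2 genes without overlap, named after their values had been seen, were Nr2f2 (1106 to 1153 against 1153 to 1166, difference 0.04) and the fibulin gene Fbln1 (1261 to 1449 against 1451 to 1548, difference 0.13), both at an adjusted p of 0.999.

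Among the 18 mesenchymal transcription factor and receptor genes tested, the median log2 difference was 0.04 and the genes with the highest levels per kb were Tbx2, Sox9 and Nr2f1. Sox9, a regulator of cartilage and ear development, had 2236 ± 276 normalized reads in Gfi1+/+ and 2351 ± 74.6 in Gfi1cre/+ (SD, n = 3). Tbx2 had 3227 ± 430 and 3470 ± 113, and Nr2f1 had 1704 ± 112 and 1653 ± 52.8. Among the 16 ion and water transport genes, the median was 0.06. Car3, a carbonic anhydrase gene, stood at 27228 per kb, which is rank 11 and between Otor and Otos, with 78391 ± 12152 and 77626 ± 7957 normalized reads. Like Otor it was lowest in Gfi1+/+ replicate 3, at 64888, beside 88448 and 81835 in replicates 1 and 2. Atp1b1, which encodes a beta subunit of the sodium pump, had 7507 ± 709 and 7831 ± 219 normalized reads, a log2 difference of 0.07. Of the 9 gap junction and contractile genes, with a median of 0.08, S100b, the connexin gene Gjb2 and the vimentin gene Vim led in level. Gjb2 had 24498 ± 3202 and 25682 ± 644, and Vim had 15588 ± 979 and 15775 ± 319. Of the 24 matrix genes other than collagens, with a median of 0.02, Sparc (174919 ± 21837 and 188409 ± 4813), Lum (15440 ± 1902 and 14967 ± 30.4) and Mgp (3553 ± 797 and 3336 ± 61.5) led in level. For all of the genes named in this paragraph the adjusted p was 0.999 in limma's test and the genotypes overlapped.

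**Figure D5:**
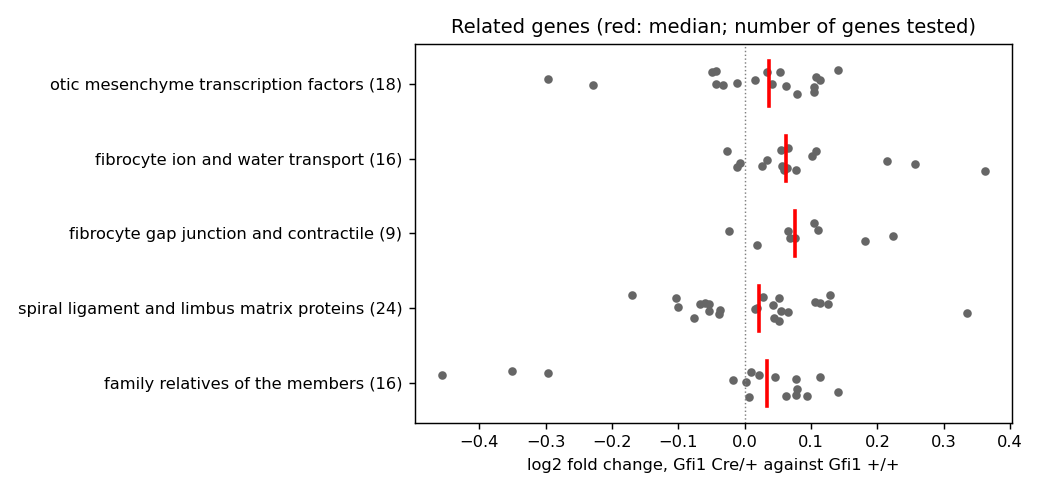
log2 fold change, Gfi1cre/+ against Gfi1+/+, of each related gene, 1 grey point per gene and 1 row per list, with the list's median in red and the number of genes tested beside its name. The medians lie between 0.02 and 0.08.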

How the data were processed

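Cochlear duct RNA of 3 Gfi1+/+ and 3 Gfi1cre/+ libraries was sequenced by the authors with TruSeq libraries, aligned to mm10 with Tophat and counted per gene with HTSeq-count on uniquely mapped reads. Versions, annotation and strand setting are not given in the sources used here. For each gene the authors deposited a normalized signal in every library, named quantile-normalized in the methods. The values do not have that form: in each library 100% were, within the rounding of the file (0.005), whole multiples of 1 step, so they are read counts over 1 size factor (0.81 to 1.15), and reads could be recovered. Each column names its genotype and replicate, and was assigned from that.

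Genes that reached 40 normalized reads in 1 library were tested (14455 of 14865). Because the values are normalized, limma 3.58.1 (R 4.3.3) was used in place of the count test of the study. It was fitted to log2 of the value plus a pseudocount of 1, by genotype alone, with a trended eBayes step, two-sided p-values and Benjamini-Hochberg adjustment over all genes tested. This scale understates the change of low genes. Labels call the triplicates independent. Alternatives were pseudocounts of 0.1 and 10, no filter, a minimum mean of 200, no trend, median centring, quantile normalization, a replicate block, each library left out, edgeR 4.0.16 (quasi-likelihood, with TMM or DESeq2 size factors) and DESeq2 1.42.0 on recovered reads. The fit was also run on simulated data with the same dispersion in both genotypes and changes larger than those of the 6 members. Those data do not hold the unequal spread seen here, so they do not show how the fit performs for these genes. Exon lengths, each the union of the exons of all transcripts of a gene, came from GENCODE for 14791 identifiers. The annotation may not be that of the authors. Members and lists were chosen with earlier results of these data known. The genes named are the 6 members, up to 3 genes per list with the highest level per kb and those with an unadjusted p under 0.05, and the 3 nearest profiles per member; family relatives, bone genes and genes without overlap were named beyond that rule, after their values had been seen. Listed genes not found in the table were not analysed here. The values of 1 gene that this rule names are not reported here.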

Additional observations from a re-analysis of the deposited data

How the results depend on the processing

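No member passed an adjusted p of 0.05 under any of the 17 alternatives. Coch, Pou3f4 and Tbx18 kept their direction in all 17. Of these, no filter, a minimum mean of 200, no trend and the replicate block cannot move an estimate, since they use the same values. Leaving out 1 library at a time gave log2 differences from 0.107 to 0.515 for Coch, -0.000597 to 0.365 for Otos, 0.0174 to 0.0865 for Pou3f4, 0.0233 to 0.112 for Tbx18, -0.314 to 0.0559 for Otor and -0.273 to 0.322 for Emilin2. Emilin2 was also -0.0267 in edgeR with TMM, and -0.0276 both in edgeR with DESeq2 size factors and in DESeq2. Otos was -0.000597 and Otor 0.0263 without Gfi1+/+ replicate 2, and Otor was 0.0559 without Gfi1+/+ replicate 1. The cause of these changes was not tested. Among the genes named for their level per kb or unadjusted p, Car3 turned to 0.00174 with median centring and 0.0141 with quantile normalization, where Sparc was at 0. With single libraries left out, the ranges of these genes that crossed 0 were -0.0222 to 0.155 for Sox9, -0.0736 to 0.011 for Nr2f1, -0.137 to 0.086 for Car3, -0.023 to 0.0665 for Vim, -0.13 to 0.0489 for Lum, -0.219 to 0.1 for Mgp and -0.0772 to 0.0348 for Emilin1. The remaining genes named were not examined in this way. Over all genes, the count at an adjusted p under 0.05 was 4, and it was 0 in limma with a minimum mean of 200, where fewer genes are tested, 10 in DESeq2 and 0 to 48 with single libraries left out. The count at an unadjusted p under 0.05 was 439 (147 higher and 292 lower in Gfi1cre/+, but 205 and 230 with quantile normalization), 229 with that minimum and 212 to 2335 with single libraries left out, the highest without Gfi1+/+ replicate 3.

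Each replicate number holds 1 library per genotype, so with that number as a block the 6 estimates cannot move. Coch stayed at 0.318 (adjusted p = 0.999 in limma), and its unadjusted p in that limma fit became 0.025. The numbers were not taken as pairs: the correlations of same-numbered libraries, as deviations from the group means over genes, were -0.0944, 0.107 and -0.0326. At least 2488 reads lay behind each member's value, and counting error was not set against the spread between libraries.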
